A study of Mus musculus with 10 samples.

Results

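Cbr3, which encodes a carbonyl reductase, and 9 genes linked to the transcription factor NRF2 (Cbr1, Nqo1, Gclc, Gclm, Hmox1, Txnrd1, Srxn1, Gsr and Nfe2l2) were examined in male mouse embryonic stem cells (mESCs) kept under alternative culture methods. Cbr3 was chosen for its higher values in suspension culture, so its difference between the methods is given as a description and without a test. The other 9 genes were chosen by name as antioxidant genes, and the question was whether they followed Cbr3 across the 10 libraries. All 10 genes were found as single features among the 25965 features of the deposited table, and all 10 passed the filter on low values.

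The cells were C57/Bl6 mESC lines, 2 independent lines per the study, both derived by the Keniry2022 method in 2i medium with LIF, which holds the cells in a naive pluripotent state through inhibitors of MEK and GSK3. Each line was sampled at p0 and then divided between the methods and sampled again at p10 and p20, which gave 5 groups of 2 libraries: p0, p10 Keniry2022, p20 Keniry2022, p10 Mulas2019 and p20 Mulas2019. Keniry2022 cells grew in suspension on untreated plates with daily passage at higher density, whereas Mulas2019 cells grew attached to gelatin, at lower density and with passage every second day. Medium volumes were also larger under Keniry2022, per the study. Attachment, density, passage interval and medium volume therefore changed together and cannot be told apart, and no line was derived under Mulas2019 conditions. At equal passage the Mulas2019 cells had been longer in culture, and p20 Keniry2022 and p10 Mulas2019 were the groups matched for days. The medium of both methods contained the reducing agent β-mercaptoethanol, per the study's methods.

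NRF2, the product of Nfe2l2, is the main activator of antioxidant and detoxifying genes. In unstressed cells KEAP1 holds it for ubiquitination by the CUL3 and RBX1 ligase, and oxidants or electrophiles that modify KEAP1 let newly made NRF2 enter the nucleus. There it pairs with a small MAF protein and binds antioxidant response elements, whose core is TGACNNNGC. Because NRF2 is regulated mainly at the protein level, the mRNA of Nfe2l2 is not a direct measure of its activity. The repressor BACH1 competes for the same elements and is best known for its hold on Hmox1.

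RefSeq promoter windows (250 bases before to 50 bases after a start site, GRCm38.p6) were at hand for 7 of the 10 genes. The core TGACNNNGC, searched on both strands, was found in 4 of these 7 genes (Gclm, Txnrd1, Srxn1 and Nfe2l2), against 13.99% of 27025 genes and 12.39% of all 32851 windows. The windows of Cbr3 (chr16:93682969-93683268, plus strand), Nqo1 (chr8:107403156-107403455, minus strand) and Gclm (chr3:122245307-122245606, plus strand) are printed because these are the gene the others were compared with, the one whose level followed it most closely, and one with a match that differed between methods at p20. Capitals mark a match to the core.
Cbr3: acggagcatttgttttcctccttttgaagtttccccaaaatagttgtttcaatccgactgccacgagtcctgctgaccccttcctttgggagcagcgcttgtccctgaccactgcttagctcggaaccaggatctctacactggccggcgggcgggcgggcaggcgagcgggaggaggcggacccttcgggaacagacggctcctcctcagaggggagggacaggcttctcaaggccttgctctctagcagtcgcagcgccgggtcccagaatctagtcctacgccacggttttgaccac
Nqo1: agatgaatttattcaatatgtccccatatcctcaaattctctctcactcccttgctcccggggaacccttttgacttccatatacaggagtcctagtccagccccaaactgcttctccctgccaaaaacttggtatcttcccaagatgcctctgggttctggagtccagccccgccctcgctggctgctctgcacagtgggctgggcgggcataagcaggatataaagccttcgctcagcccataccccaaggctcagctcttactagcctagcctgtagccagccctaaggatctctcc
Gclm: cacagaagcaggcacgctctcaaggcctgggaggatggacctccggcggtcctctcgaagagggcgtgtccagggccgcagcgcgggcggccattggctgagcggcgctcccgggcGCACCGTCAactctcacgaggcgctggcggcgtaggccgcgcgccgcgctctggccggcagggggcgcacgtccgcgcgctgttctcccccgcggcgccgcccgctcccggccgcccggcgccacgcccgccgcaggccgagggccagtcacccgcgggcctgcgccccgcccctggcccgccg
The match of Gclm lay on the minus strand, 134 bases before the start site. The windows of Cbr3 and Nqo1 held no match, which says only that these letters are not in these bases. A match is a run of letters and not a measured binding site.

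Values are log2 RPKM (reads scaled to exon length and library total), which can be compared between genes. Library totals were between 24053996 and 30236823 reads. The 8 markers of mESCs were high in every library, with a summed RPKM of 1409 to 1543 under Keniry2022, 1298 to 1322 under Mulas2019 and 1509 to 1749 at p0. Those of primitive endoderm summed to 1.46 to 1.72 RPKM under Mulas2019, 1.37 to 1.54 at p0 and less, from 1.10 up, in every Keniry2022 library, and those of fibroblasts to at most 1.47 RPKM, with Dcn at 0 reads throughout and Col1a2 at 1 read or fewer. Those of primed pluripotency, mostly Dnmt3b, summed to 33.0 to 39.6 RPKM under Keniry2022, 20.0 to 24.8 under Mulas2019 and 20.1 to 22.5 at p0, and those of trophoblast to 2.25 to 2.72, 2.48 to 3.70 and 2.06 to 2.07. The methods did not overlap for the mESC, primitive endoderm and primed markers and overlapped for the others. Their part in the results was not tested. The p0 libraries differed more than other pairs: the SD over features of the log2 difference between replicates was 0.611 at p0 and 0.230 to 0.265 in the other groups. This SD does not tell which p0 library stood apart. The first is treated as the one, because far more features were called against it alone than against the second, as given below. The comparisons with p0 are given with and without the first p0 library. The study saw the Y chromosome lost in 1 line, and the reads of Y-linked genes (at most 132 in a library of one kind and at least 4578 in the other) placed replicate 1 of p20 Keniry2022 with replicate 2 of the other groups. In such bulk libraries, fewer cells expressing a gene and less RNA per cell cannot be told apart.

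Cbr3 (chr16:93683215-93690990, plus strand, mm10) reduces carbonyl compounds and quinones with NADPH. Its log2 RPKM was 4.99 and 4.36 at p0, 4.35 and 4.56 at p10 Keniry2022, 4.23 and 4.39 at p20 Keniry2022, 2.76 and 3.11 at p10 Mulas2019, and 3.35 and 3.47 at p20 Mulas2019. The 4 Mulas2019 libraries were the lowest of the 10, and their range did not meet that of the 4 Keniry2022 libraries or of p0. These levels rested on 192 to 895 reads per library. Averaged over p10 and p20, Cbr3 was at 4.38 ± 0.14 (SD, n = 4) under Keniry2022 and at 3.17 ± 0.31 (SD, n = 4) under Mulas2019, a difference of 1.21 on the log2 scale or 2.31-fold. The difference was 1.52 at p10, 0.90 at p20 and 1.37 between the groups matched for days. From the most positive difference down it ranked 33 of the 11654 features tested, and 3 of the 6199 with a mean log2 RPKM of at least 3; by size in either direction it ranked 88. Among the 5 group means the order was p0 (4.68), p10 Keniry2022 (4.45), p20 Keniry2022 (4.31), p20 Mulas2019 (3.41) and p10 Mulas2019 (2.94), and the first 3 means lay closer together than the p0 libraries did.

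**Figure D1:**
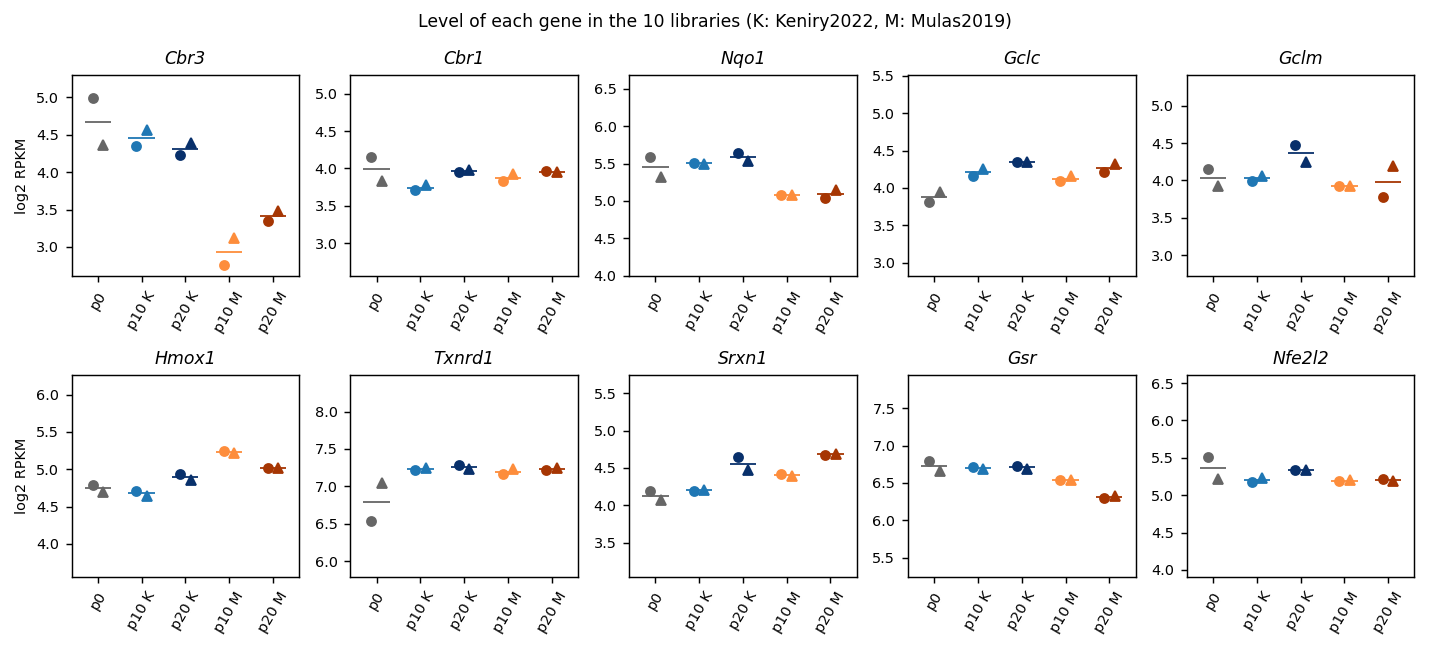
Level (log2 RPKM) of the 10 genes in each library, by group; circles are replicate 1, triangles replicate 2 and bars the mean of both, and every panel spans the same number of log2 units. Cbr3 lay between 2.76 and 3.47 in the Mulas2019 libraries and at 4.23 or above elsewhere, while most other genes stayed within a narrow band.

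Cbr1 (chr16:93607837-93610505, plus strand), the neighbouring carbonyl reductase gene and a paralog of Cbr3, did not show this split. It measured 4.15 and 3.84 at p0, 3.71 and 3.78 at p10 Keniry2022, 3.96 and 3.98 at p20 Keniry2022, 3.83 and 3.92 at p10 Mulas2019, and 3.96 and 3.95 at p20 Mulas2019. The Mulas2019 libraries fell inside the range of the Keniry2022 libraries. The difference between the methods was -0.06 with a 95% interval from -0.20 to 0.08 (limma, adjusted p = 0.457), which leaves out any difference as large as that of Cbr3. The longest stretch shared exactly by the longest transcripts of both genes was 50 bases, shorter than the 75-base reads.

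The groups were compared with limma, and a gene was called at a Benjamini-Hochberg adjusted p under 0.05, taken over every feature in the fit; differences are Keniry2022 minus Mulas2019 on the log2 scale. With both passages together, 3 of the 9 genes other than Cbr3 passed the test, Nqo1 and Gsr higher and Hmox1 lower under Keniry2022. Over all features 51.5% passed, 25.9% higher and 25.5% lower. The methods' libraries did not overlap for 3 of the 9 genes, against 46.5% of all features. In this fit the share of antioxidant genes that differed was thus not above that of the transcriptome. A model of all 10 libraries also called 3 of the 9, but beside 19.2% of features. In the first fit the median difference of the 9 genes was 0.07. It was -0.0030 for all features and 0.07 for the 6199 with a mean log2 RPKM of at least 3, where all 9 lay. Under quantile normalisation 1 gene was higher (Nqo1) and 2 were lower (Hmox1 and Txnrd1), with 46.0% of features called.

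Nqo1 (chr8:107388225-107403206, minus strand) encodes the quinone reductase often used as a readout of NRF2. Its log2 RPKM was 5.59 and 5.32 at p0, 5.50 and 5.50 at p10 Keniry2022, 5.64 and 5.53 at p20 Keniry2022, 5.08 and 5.07 at p10 Mulas2019, and 5.04 and 5.14 at p20 Mulas2019. All 4 Mulas2019 libraries were below all others, as for Cbr3. Nqo1 was 1.38-fold higher under Keniry2022 (log2 difference 0.46, SE 0.04, adjusted p = 4.6e-05). It was called under each of the 19 alternative settings of this comparison, with differences from 0.37 to 0.48.

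Gsr (chr8:33652523-33698163, plus strand) encodes glutathione reductase, which returns oxidised glutathione to its reduced form. Its values were 6.79 and 6.67 at p0, 6.72 and 6.69 at p10 Keniry2022, 6.73 and 6.69 at p20 Keniry2022, 6.54 and 6.53 at p10 Mulas2019, and 6.30 and 6.32 at p20 Mulas2019. Keniry2022 libraries were near the level of p0 and Mulas2019 libraries were below it, more so at p20. The difference was 0.28 (SE 0.06, 1.22-fold, adjusted p = 0.00263), and under quantile normalisation it was 0.15 with an adjusted p of 0.0502.

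Hmox1 (chr8:75093591-75100596, plus strand), which encodes the inducible haem oxygenase, went the other way. It measured 4.80 and 4.70 at p0, 4.72 and 4.65 at p10 Keniry2022, 4.93 and 4.86 at p20 Keniry2022, 5.24 and 5.22 at p10 Mulas2019, and 5.02 and 5.01 at p20 Mulas2019. Each Mulas2019 library was above each of the other 6, a mirror image of the order of Cbr3 and Nqo1. Hmox1 was 0.33 lower under Keniry2022 (SE 0.08, 0.794-fold, adjusted p = 0.00458), and it kept its direction and its call under the 19 alternatives. NRF2 and BACH1 act on Hmox1 in opposite directions, and Bach1 itself differed by 0.08 (SE 0.05, adjusted p = 0.192). The part of NRF2 and BACH1 in the difference of Hmox1 was not tested.

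The 6 other genes did not pass the test with both passages together. Gclm, the modifier subunit of the enzyme that makes γ-glutamylcysteine for glutathione, measured 4.15 and 3.92 at p0, 3.99 and 4.06 at p10 Keniry2022, 4.48 and 4.24 at p20 Keniry2022, 3.93 and 3.93 at p10 Mulas2019, and 3.78 and 4.19 at p20 Mulas2019. Its p20 Mulas2019 replicates lay further apart than any pair of the other genes after p0, and the methods overlapped. The difference was 0.24 with a 95% interval from -0.01 to 0.48 (adjusted p = 0.0984), and without replicate 2 of p20 Mulas2019 it was 0.32 and passed the test (adjusted p = 0.0315). Gclm also shared 3.5% of the 75-base stretches of its transcripts with other genes and overlapped 1 feature on the opposite strand, so a part of its reads could be split.

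Gclc, the catalytic subunit of the same enzyme, ranged from 4.16 to 4.35 under Keniry2022 and from 4.10 to 4.33 under Mulas2019. The difference of 0.08 had an interval from -0.05 to 0.21. At p0 it was lower than in every later library, at 3.82 and 3.95.

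Srxn1 encodes sulfiredoxin, which repairs overoxidised peroxiredoxins. It was at 4.19 and 4.07 at p0, 4.20 and 4.21 at p10 Keniry2022, 4.65 and 4.47 at p20 Keniry2022, 4.42 and 4.39 at p10 Mulas2019, and 4.68 and 4.69 at p20 Mulas2019. Its libraries were ordered by passage as much as by method, and p20 was above p10 in both methods. With passages pooled the difference was -0.17 with an interval from -0.41 to 0.08; it passed the test with passage as a term (adjusted p = 0.011) and without replicate 1 of p20 Keniry2022 (-0.26, adjusted p = 0.0489).

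Txnrd1, the cytosolic thioredoxin reductase, was the most highly expressed of the 10 genes, with a mean log2 RPKM of 7.14. After p0 its 8 libraries lay between 7.16 and 7.29, and the difference of 0.03 had an interval from -0.04 to 0.11. Under quantile normalisation it turned to -0.13 (adjusted p = 0.00597). The first p0 library was the lowest at 6.54, with 7.04 in the second.

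Nfe2l2 itself ranged from 5.18 to 5.34 under Keniry2022 and from 5.18 to 5.22 under Mulas2019. The difference of 0.07 had an interval from -0.02 to 0.17 (adjusted p = 0.155), so any difference in the mRNA of NRF2 with passages pooled was small beside that of Cbr3. Under quantile normalisation it was -0.01.

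**Figure D2:**
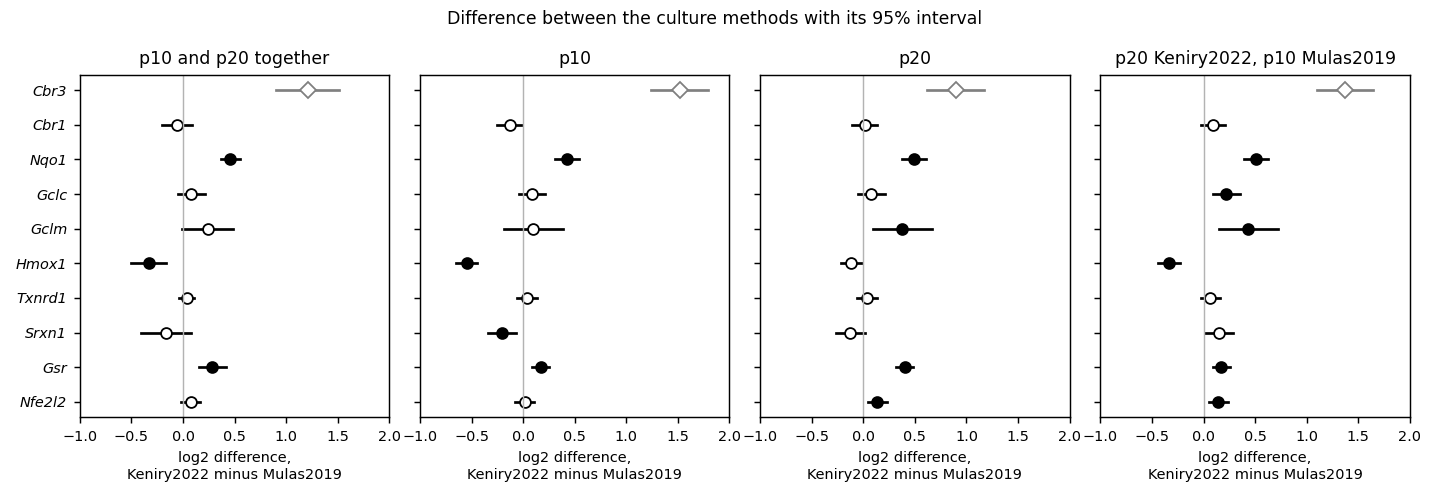
Log2 difference (Keniry2022 minus Mulas2019) of the 10 genes with its 95% interval from limma, for both passages, p10, p20 and the groups matched for days; filled circles passed the test at an adjusted p of 0.05, open circles did not, and the grey diamond is Cbr3, which was not tested. Nqo1 and Gsr were above 0 in all 4 panels and Hmox1 below 0, between -0.55 and -0.12, while Cbr3 lay between 0.90 and 1.52. The interval drawn for Cbr3 is not a test, since the gene was chosen for this difference.

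At p10 alone, 4 of the 9 genes passed the test, against 48.3% of features. Nqo1 (0.43, SE 0.05, adjusted p = 0.000477) and Gsr (0.17, SE 0.04, adjusted p = 0.00626) were higher under Keniry2022. Hmox1 (-0.55, SE 0.05, adjusted p = 0.000146) and Srxn1 (-0.21, SE 0.06, adjusted p = 0.0221) were lower. The call of Srxn1 was lost when any single p10 library was left out, with differences from -0.22 to -0.19, and under quantile normalisation Gsr differed by 0.047 and was not called, while Cbr1 and Txnrd1 were called lower, which made 1 higher and 4 lower with 44.3% of features called.

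At p20, 4 of the 9 passed, all higher under Keniry2022, against 36.7% of features, but this split depended on the scaling. The 4 were Nqo1 (0.49, adjusted p = 0.000799), Gsr (0.40, adjusted p = 0.000552), Gclm (0.38, adjusted p = 0.0453) and Nfe2l2 (0.13, adjusted p = 0.0317). Under quantile normalisation 5 passed, Nqo1 and Gsr higher and Hmox1, Txnrd1 and Srxn1 lower, with 28.1% of features called. Hmox1 differed by -0.12 as reported and missed the threshold (adjusted p = 0.0747). The call of Gclm was lost under 11 of 18 alternatives, the replicate block among them, and that of Nfe2l2 under 6 of 18. Without replicate 1 of p20 Mulas2019, 2 of the 9 genes passed (Nqo1 and Gsr), with 19.5% of features called.

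Between the groups matched for days, 6 of the 9 genes passed, against 43.4% of features. Nqo1 (0.51), Gclm (0.43), Gclc (0.22), Gsr (0.17) and Nfe2l2 (0.14) were higher in p20 Keniry2022, and Hmox1 (-0.33) was lower. Both subunits of the enzyme that makes γ-glutamylcysteine thus differed here, by amounts well under the 1.37 of Cbr3. The calls of Gclc and Gclm were each lost under 4 of 18 alternatives. Without replicate 1 of p20 Keniry2022, or without replicate 1 of p10 Mulas2019, 3 of the 9 passed (Nqo1, Hmox1 and Gsr), with 30.4% and 29.8% of features called, and under quantile normalisation Gsr differed by 0.030 and was not called. Nfe2l2 also lost its call under quantile normalisation, which left 4 of the 9, with 38.3% of features called. In all, the call of Nfe2l2 was lost under 6 of 18 alternatives. The comparisons between methods share libraries with each other and are not separate tests of a gene.

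Whether the difference between methods changed from p10 to p20 was tested as an interaction in limma. None of the 9 genes passed, with 0% of features called over the table at an adjusted p of 0.05 and 1836 at an unadjusted p under 0.05, 2 of the 9 genes (Hmox1 and Gsr) among them. A fit with voom on the recovered reads called 85 features, and 1 of the 9 genes, Hmox1, whose difference moved from -0.55 at p10 to -0.12 at p20 (interaction 0.43, SE 0.06; adjusted p = 0.069 in limma). That of Cbr3 moved from 1.52 to 0.90.

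Within Keniry2022, none of the 9 genes passed the test between p20 and p10, where 0.0343% of features did. In that comparison 6 of the 9 and 1475 features (12.7%) had an unadjusted p under 0.05, and the fit with voom called 1 of the 9, Srxn1, among 49 features. Srxn1 was 0.36 higher at p20 (SE 0.06, adjusted p = 0.0857), Gclm 0.34 (SE 0.13, adjusted p = 0.335), Cbr1 0.22 (SE 0.05, adjusted p = 0.189) and Hmox1 0.22 (SE 0.05, adjusted p = 0.155). The mean of Cbr3 differed by -0.15, given without a test.

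Within Mulas2019, 2 of the 9 fell from p10 to p20, against 2.47% of features called. Hmox1 fell by 0.22 (SE 0.05, adjusted p = 0.0492) and Gsr fell by 0.23 (SE 0.04, adjusted p = 0.0344). The call of Hmox1 was lost under 14 of 18 alternatives and that of Gsr under 7 of 18. With the replicate number as a block the count was 1, Gsr. Leaving out any single p20 Mulas2019 library, replicate 1 of p10 Mulas2019 or any single p10 Keniry2022 library brought it to 0, and without replicate 2 of p10 Mulas2019 it was 1. The mean of Cbr3 was 0.48 higher at p20 than at p10, given without a test, and Srxn1 was 0.28 higher (adjusted p = 0.0526).

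Against p0, none of the 9 genes passed the test in Keniry2022 cells at p10 or at p20, where 0.199% of features did in either case. Unadjusted, 2860 features and 2 of the 9 genes had a p under 0.05 at p10, and 3237 features and 3 genes at p20; voom called 0 features in both. The values were not all near 0: Gclc was 0.33 and 0.47 higher than at p0, and Txnrd1 0.44 and 0.47 higher. With 1 p0 library left out, the other stands alone and is assumed to vary like the other groups. At p20, 2 genes passed once replicate 1 of p0 was left out, Gclc and Srxn1, both higher, with 4.61% of features called; at p10 none did, with 5.23%. With only the library that stood apart, that is without replicate 2 of p0, 4 passed at p10 and 5 at p20, beside 64.3% and 66.5% of features.

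In Mulas2019 cells at p10, 3 of the 9 differed from p0, against 33.0% of features. Nqo1 fell by 0.38 (SE 0.10, adjusted p = 0.0295), Hmox1 rose by 0.48 (SE 0.08, adjusted p = 0.0102) and Srxn1 rose by 0.28 (SE 0.09, adjusted p = 0.0444). Without replicate 1 of p0, 5 passed beside 40.5% of features, and without replicate 2 of p0, 8 beside 71.8%. Leaving out any single library of p10 Keniry2022, p20 Keniry2022 or p20 Mulas2019 left 1, Hmox1, and leaving out either p10 Mulas2019 library left 0, with 0.0958% and 1.23% of features called. The call of Srxn1 was also lost without a filter (adjusted p = 0.0535), with median centring (adjusted p = 0.0732) and with the replicate block after exchanging the numbers of p20 Keniry2022 (adjusted p = 0.0593). Under quantile normalisation Nqo1 was not called and 4 genes were higher than at p0 (Gclc, Hmox1, Txnrd1 and Srxn1), with 32.7% of features called.

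In Mulas2019 cells at p20, 5 of the 9 differed from p0, against 29.3% of features. Nqo1 fell by 0.36 (adjusted p = 0.0363) and Gsr fell by 0.42 (adjusted p = 0.015), whereas Srxn1 rose by 0.56 (adjusted p = 0.0121), Gclc by 0.39 (adjusted p = 0.0216) and Hmox1 by 0.27 (adjusted p = 0.0388). The count was 6 without replicate 1 of p0, beside 37.5% of features, and 8 without replicate 2, beside 71.1%. Leaving out any single library of p10 Keniry2022, p20 Keniry2022 or p10 Mulas2019 left 3 (Gclc, Srxn1 and Gsr), beside 11.1% to 13.2% of features, and leaving out either p20 Mulas2019 library left 0, beside 0.00872% and 0.139%. The call of Hmox1 was also lost with median centring (0.21, adjusted p = 0.0836) and with the replicate block after the same exchange (adjusted p = 0.0509). Under quantile normalisation Nqo1 and Gsr were not called and the same 4 genes as at p10 were higher, with 27.5% of features called. For Cbr3 the difference from p0 was -0.22 and -0.37 in Keniry2022 cells and -1.74 and -1.26 in Mulas2019 cells, at p10 and p20. Without replicate 1 of p0 these were 0.10, -0.05, -1.42 and -0.95.

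**Figure D3:**
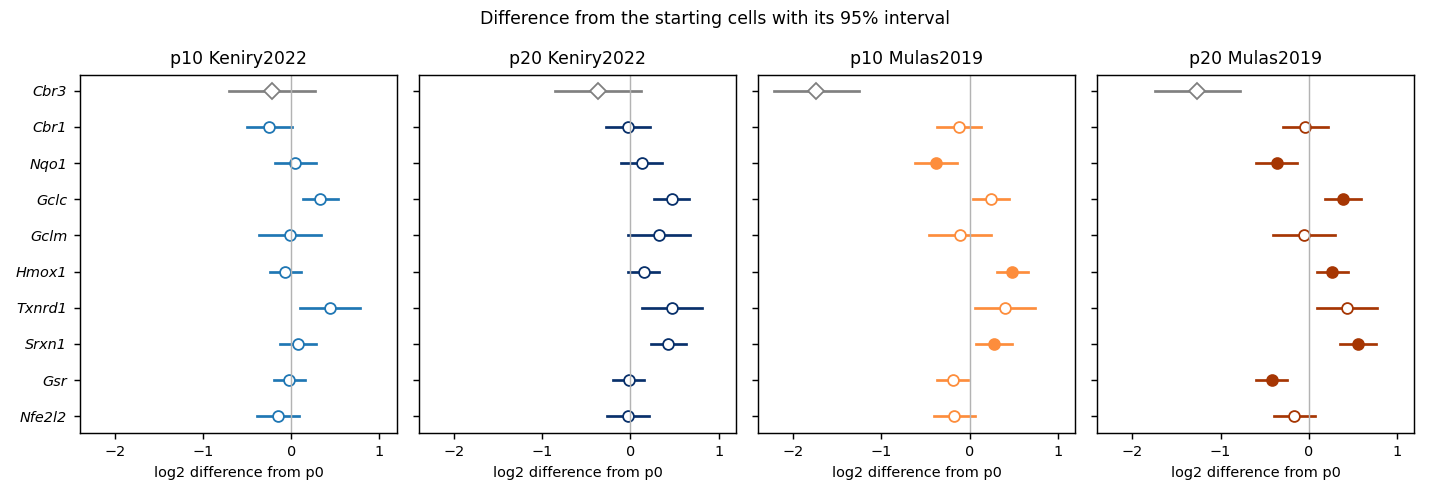
Log2 difference of each group from p0 for the 10 genes with its 95% interval from limma; filled circles passed the test at an adjusted p of 0.05, open circles did not, and the grey diamond is Cbr3, not tested. In the Mulas2019 panels Nqo1 lay to the left of 0 (-0.38 and -0.36) with Cbr3 (-1.74 and -1.26), and Hmox1 and Srxn1 to the right. The 4 panels share the p0 libraries. The interval drawn for Cbr3 is not a test, since the gene was chosen for its values in these libraries.

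The likeness of each gene to Cbr3 was described by Pearson's r of the log2 values over the 10 libraries. These points share their library totals and fall into the methods' clusters, so no p-value is given. Nqo1 had the highest r, at 0.90, which 4.26% of the 11560 other features above the filter reached or passed. Gsr followed at 0.75 and Nfe2l2 at 0.65, values that 16.8% and 23.8% of features reached. Gclm was at 0.44 and Cbr1 at 0.17. Gclc (-0.25), Txnrd1 (-0.47), Srxn1 (-0.53) and Hmox1 (-0.89) were below 0. The median of the 9 was 0.17, beside -0.04 over all features, and 5 of the 9 were above 0, beside 48.8% of features. Without replicate 1 of p0, r was 0.89 for Nqo1, which 8.45% of features reached, 0.70 for Gsr and -0.94 for Hmox1, while that of Txnrd1 was 0.03, that of Gclc 0.17 and that of Cbr1 -0.28.

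**Figure D4:**
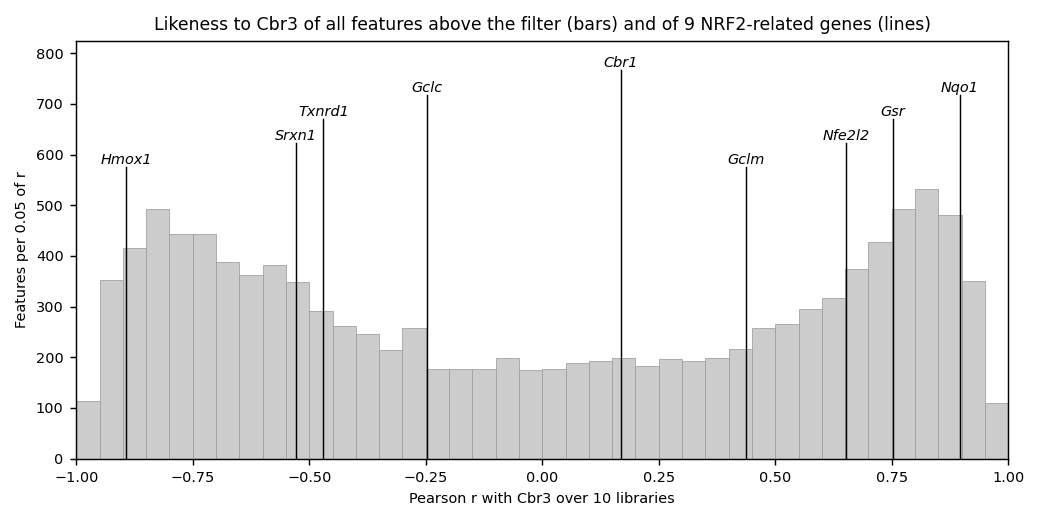
Pearson's r with Cbr3 over 10 libraries, as the number of features per 0.05 of r (bars) and as lines for the 9 other genes, whose heights have no meaning. The genes were spread over the whole range of the features, from Hmox1 at -0.89 to Nqo1 at 0.90.

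The 5 features most like Cbr3 among the 6198 others with a mean log2 RPKM of at least 3 were Rmnd5b (r = 0.99), Tsc22d1 (0.98), Gm13242 (0.98), Plekhf1 (0.98) and St3gal4 (0.98). None belonged to the antioxidant lists. Beyond the 10 genes these lists held 107 of the 11654 features tested, so 5 features are too few to show a difference from that share. Rmnd5b averaged 4.76 under Keniry2022 and 4.17 under Mulas2019, and St3gal4, a sialyltransferase, 3.23 and 2.71.

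Beyond the 10 genes, 8 lists of redox and detoxification genes were counted with those 10 left out. Of 107 tested genes, 57 (53.3%) differed between the methods with both passages together, 37 higher and 20 lower under Keniry2022. Over all features 51.5% differed, 25.9% higher and 25.5% lower. The median difference of the listed genes was 0.07, beside -0.0030 for all features tested. It was also 0.07 for the features with a mean log2 RPKM of at least 3, but the lists held genes below that level too. With the filter at 2, 59.3% of all called features were higher under Keniry2022. Whether the lists lean further than other features of their level was not tested.

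Among genes that control NRF2, 2 of 13 were higher and 5 lower, with a median of -0.13. Rbx1 (0.28, SE 0.05, adjusted p = 0.00117) and Cul3 (0.18, SE 0.04, adjusted p = 0.00293), the ligase that takes NRF2 to degradation, were higher. Mafg, a small MAF partner, was lower (-0.23, SE 0.03, adjusted p = 0.000431), as was the coactivator Ep300 (-0.32, SE 0.06, adjusted p = 0.00102). Keap1 differed by -0.11 (SE 0.05, adjusted p = 0.106). In the model of all 10 libraries none of Rbx1, Cul3, Mafg and Ep300 was called.

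Of 15 genes of glutathione synthesis and recycling, 6 were higher and 3 lower, with a median of 0.08. Glrx, a glutaredoxin that removes glutathione from proteins, ranged from 3.22 to 3.70 under Keniry2022 and from 2.25 to 2.97 under Mulas2019, which made it 0.98 higher (SE 0.15, adjusted p = 0.00048). Gss, glutathione synthetase, was 0.54 higher (SE 0.06, adjusted p = 0.000134), Gpx1 0.25 and Glrx3 0.22. Among 13 glutathione S-transferases, 3 were higher and 2 lower, with a median of -0.06. Gsta3 measured 2.88 to 3.0 under Keniry2022 and 1.42 to 2.06 under Mulas2019, which is a 2.31-fold difference (log2 1.21, SE 0.12, adjusted p = 5.96e-05) and close to that of Cbr3. Gsto1 was 0.28 higher, and Gstz1 and Mgst3 were 0.33 and 0.24 lower.

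The thioredoxin and peroxiredoxin list had 10 of 17 genes higher and 3 lower, with a median of 0.16. Prdx1 (0.41, SE 0.05, adjusted p = 0.00021) and the mitochondrial Prdx3 (0.38, SE 0.05, adjusted p = 0.000237), which reduce peroxides, were higher, as were the thioredoxins Txn1 (0.34) and Txn2 (0.21). In the first p0 library Txn1 was at 8.81 and Prdx1 at 8.41, against 7.85 and 7.44 in the second. In the list of carbonyl, quinone and aldehyde detoxification, 8 of 21 genes were higher and 5 lower, with a median of 0.09. Akr1b8, an aldo-keto reductase, ranged from 2.26 to 2.76 under Keniry2022 and from 1.21 to 1.38 under Mulas2019 (difference 1.31, 2.48-fold, SE 0.11, adjusted p = 3.82e-05). Dhrs4, a further carbonyl reductase, was 0.56 higher (SE 0.08, adjusted p = 0.000285), Nqo2 0.30 and Ptgr1 0.27.

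Haem and iron genes numbered 3 higher and 1 lower of 11, with a median of 0.04. Fth1, the ferritin heavy chain, was 0.34 higher (SE 0.04, adjusted p = 8.39e-05). Blvrb, a biliverdin reductase, was 0.27 higher (SE 0.04, adjusted p = 0.000362), opposite in sign to Hmox1. Blvra, the other biliverdin reductase gene, differed by -0.14 (SE 0.12, adjusted p = 0.353). Tfrc was 0.26 higher and Fech, ferrochelatase, 0.15 lower. Of 13 genes listed for NADPH production, 3 were higher and 1 lower, with a median of 0.07. Rpia (0.43), Rpe (0.40) and Idh1 (0.28) were higher and the malic enzyme Me1 was lower (-0.37). Rpia and Rpe are pentose phosphate enzymes that do not themselves make NADPH. G6pdx (0.13) and Pgd (0.07), which do, were not called. Of 4 superoxide dismutase and catalase genes, Ccs, the copper chaperone of SOD1, was 0.40 higher (SE 0.04, adjusted p = 4.73e-05) and the mitochondrial Sod2 0.34 higher (SE 0.04, adjusted p = 0.000187), whereas Sod1 differed by 0.01 (SE 0.05, adjusted p = 0.901) and Cat by -0.03 (SE 0.04, adjusted p = 0.572). Of these genes, Nqo2, Rpe, Me1, Sod2, Glrx3, Gss, Gstz1 and Prdx1 shared between 4.0% and 20.0% of their 75-base stretches with transcripts of other genes, and their values are less certain. Under quantile normalisation Cul3 (0.09), Gpx1 (0.08), Mgst3 (-0.14) and Tfrc (0.13) were no longer called. The calls of Mgst3 (-0.22) and Fech (-0.13) were also lost without replicate 1 of p20 Mulas2019, that of Fech without replicate 1 of p10 Keniry2022 (-0.13) and that of Tfrc without replicate 2 of p10 Mulas2019 (0.21).

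**Figure D5:**
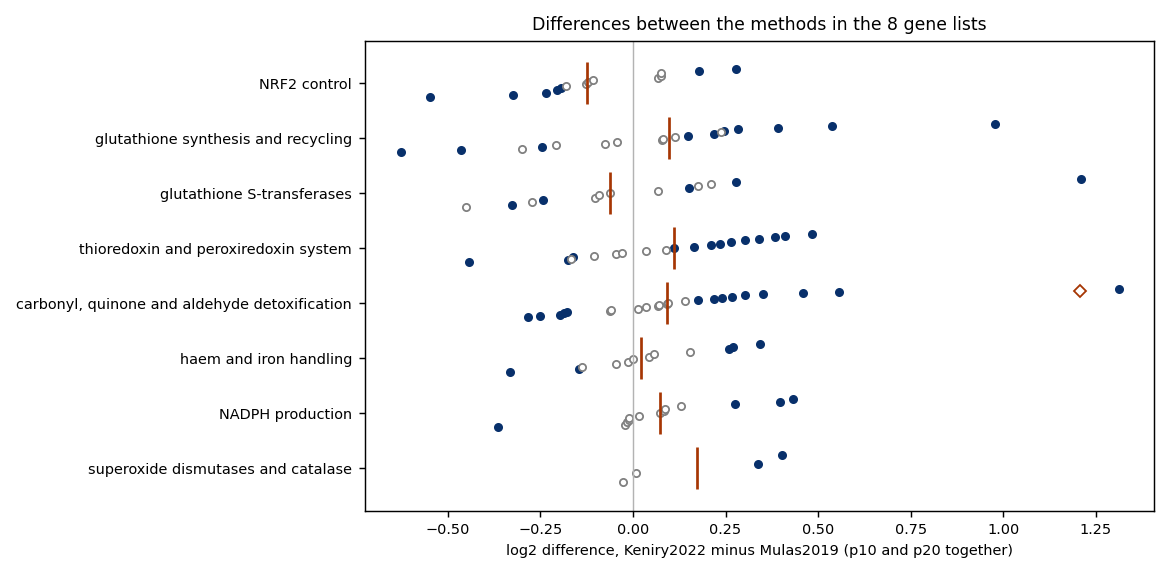
Log2 difference between the methods (Keniry2022 minus Mulas2019, both passages) of each tested gene of the 8 lists; filled points passed the test at an adjusted p of 0.05, open points did not, the diamond is Cbr3 and red bars are list medians without Cbr3 but with the other genes of the set. Akr1b8 and Gsta3, at 1.31 and 1.21, lay beside Cbr3, and most other genes were within 0.6 of 0.

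The features within 500 kb of Cbr3 on chromosome 16 did not move as a block. Besides Cbr1, Setd4 (79.2 kb away) differed by -0.14 (SE 0.11, adjusted p = 0.299) and Chaf1b by 0.09 (SE 0.05, adjusted p = 0.132). Dopey2, the nearest gene at 20.9 kb, was lower under Keniry2022 (-0.42, SE 0.06, adjusted p = 0.000423), as was Hlcs (-0.35, SE 0.10, adjusted p = 0.0172; -0.17 and not called under quantile normalisation), while Morc3 was higher (0.27, SE 0.04, adjusted p = 0.000223). Cldn14 and Sim2 had at most 4 reads and 2 reads in any library and were not tested.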

How the data were processed

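RNA-seq libraries (75-base single-end reads, per the study's methods) of 10 samples in 5 groups were read from 1 table. The authors deposited log2 values per feature; the values behave as log2 RPKM of mm10 features quantified in SeqMonk, with 0 reads entered as 0.9 reads. The aligner is given as HISAT2 in the study and as TopHat2 2.0.12 in the submitters' processing notes. Whole reads were recovered for 25964 of 25965 features, with 99.97% of values within 0.02 reads of a whole number, and library totals of 24053996 to 30236823 reads, of which 85.99% to 88.82% lay in features; 6624 features had no reads. Depth was recovered from these values, and precision rests on the spread between libraries.

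Features with a log2 value above 0 in at least 50% of the libraries of a fit were tested with limma 3.58.1 (moderated test with a mean-variance trend, R 4.3.3), on 8 libraries for comparisons of methods and passages and on 10 for comparisons with p0. Following the study, passages were pooled in the first comparison. The p-values measure the spread between these libraries, which come from 2 lines; with passages pooled, libraries of 1 line enter as separate replicates. The script was tested on simulated data. Alternatives were a filter at 2, no filter, a pseudocount of 1, median centring, quantile normalisation, voom on the recovered reads, library quality weights, passage as a term, a replicate block, a model of all 10 libraries and leaving out each library. 1 further alternative, the block with the numbers of p20 Keniry2022 exchanged, was chosen after seeing the data.

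Replicate numbers stand for lines. Same-numbered libraries deviated together among p0, p10 Keniry2022, p10 Mulas2019 and p20 Mulas2019 (r = 0.171 to 0.630). Those of p20 Keniry2022 deviated in the opposite sense (r = -0.698 to -0.118). Without the Y-linked genes these ranges were 0.076 to 0.468 and -0.542 to -0.018.

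The members and lists were chosen with earlier results of these data known. The genes named were the 10 members, up to 4 tested genes per list with the smallest unadjusted p with passages pooled, the features within 500 kb of Cbr3, and the 5 features with the highest r with Cbr3 at a mean log2 value of at least 3. Bach1, Keap1, Blvra, G6pdx, Pgd and values given for comparison were named after their values were seen. Older symbols were matched through RefSeq synonyms, and 138 of 139 further list genes were found. Shared 75-base stretches were counted in GENCODE vM21 transcripts, and promoters came from RefSeq (GRCm38.p6).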

Additional observations from a re-analysis of the deposited data

How the results depend on the processing

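With passages pooled, 3 to 4 of the 9 genes passed under every alternative run, and leaving out single libraries gave 3 to 4. The model of all 10 libraries, which adds the p0 pair to the estimate of the spread, called 2 genes at p10, 1 at p20 and 2 between the groups matched for days, and 2225 features with passages pooled, 986 at p10, 249 at p20 and 743 for matched days, in place of 6000, 5631, 4280 and 5060; of 33 further named genes called with passages pooled, 17 lost their call in it (Mafg, Ep300, Rbx1, Cul3, Glrx3, Gpx1, Gsto1, Mgst3, Prdx1, Txn1, Txn2, Fth1, Blvrb, Fech, Tfrc, Morc3 and Hlcs). With passages pooled this model called 3 of the 9 genes, beside 19.2% of features. Its shares of features were 8.53% at p10, 2.15% at p20 and 6.43% for matched days. The same model left 0 for Mulas2019 p20 against p10, as did no filter, while library quality weights left 1. The numbers of p20 Keniry2022 appear crossed; the replicate block left 1 gene (Gsr) in Mulas2019 p20 against p10, lost Gclm at p20, and changed no other call among the 9 genes, and with the numbers exchanged it gave 2 (Srxn1 and Gsr) there, and lost Srxn1 at p10 and Hmox1 at p20 in Mulas2019 against p0. Voom called 1 gene in Keniry2022 p20 against p10 and 1 in the interaction. Quality weights left 0 in both comparisons of Mulas2019 with p0. Median centring moved the median r of the 9 genes with Cbr3 from 0.17 to 0.27, and that of all features from -0.04 to 0.06. In both settings 5 of the 9 were above 0.

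Leaving out single libraries gave 3 to 4 genes at p10, 2 to 3 at p20, 3 to 6 for matched days, 0 to 1 for Keniry2022 p20 against p10, 0 to 2 for Mulas2019 p20 against p10, 0 to 4 and 0 to 5 for Keniry2022 p10 and p20 against p0, and 0 to 8 for both Mulas2019 groups against p0.

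Quantile normalisation reversed Txnrd1 (-0.13 pooled, -0.12 at p10, -0.15 at p20, -0.10 for matched days), Nfe2l2 (-0.0070 pooled, -0.060 at p10, 0.019 for Mulas2019 p20 against p0), Gsr against p0 (0.17 and 0.15 for Keniry2022 p10 and p20, 0.12 for Mulas2019 p10), Sod1 (-0.14) and Setd4 (0.041).

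Leaving out single libraries turned the sign of some uncalled differences. Against p0, Cbr1 ranged from -0.18 to 0.13 at p20 Keniry2022, from -0.27 to 0.037 at p10 Mulas2019 and from -0.19 to 0.12 at p20 Mulas2019; Nqo1 ranged from -0.088 to 0.18 and from -0.0049 to 0.26 at p10 and p20 Keniry2022; Nfe2l2 ranged from -0.18 to 0.12 at p20 Keniry2022, Cbr3 from -0.54 to 0.096 at p10 Keniry2022 and Gclm from -0.26 to 0.15 at p20 Mulas2019. Gclm ranged from -0.15 to 0.26 for Mulas2019 p20 against p10. The interaction of Srxn1 was -0.0086 without replicate 1 of p20 Keniry2022. The cause of these changes was not tested.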
